A study of Mus musculus with 14 samples.

Results

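Potassium, voltage-gated calcium and voltage-gated sodium channel genes were examined in RNA of mouse small intestinal epithelium. The genes were chosen by symbol: those beginning with Kcn, with Cacna, Cacnb or Cacng, and the Scn genes whose symbol is a number followed by a or b. They were then selected on level, keeping a gene with a CPM (its count scaled to the library's total) of at least 1 in 2 or more of the 14 libraries. Of 36401 genes in the files, 136 matched by symbol (133 distinct symbols) and 58 of them (56 symbols) passed the level, as did 14611 of all genes. These measured CPM chose the members, so that the 58 genes were detected is no finding. The closest genes left out, by their second-highest CPM, were Kcnq5 at 0.983, Kcnj13 at 0.909 and Scn7a at 0.887, and the closest kept were Kcng3 at 1.08, Scn3b at 1.12 and Kcnj16 at 1.13.

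Channels of these families set the voltage across the cell membrane and open in response to it, to calcium or to ligands. Inward rectifier (Kir) and tandem pore domain (K2P) potassium channels hold the membrane near its resting voltage, and voltage-gated (Kv) and calcium-activated potassium channels bring it back there after a depolarisation. Voltage-gated sodium (Nav) and calcium (Cav) channels carry the depolarisation itself, and calcium that enters through Cav channels triggers the release of stored hormone. In the gut such electrical activity is known from hormone-secreting enteroendocrine cells. In the bulk of the epithelium, potassium channels instead recycle potassium and keep up the driving force for chloride secretion and nutrient uptake. Some members, such as the Kcnab, Kcne and Kcnip genes and the Cav and Nav beta subunits, code for accessory proteins and not for a pore.

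Cells came from the ileum, 5 to 8 cm from the cecum, and the jejunum, 5 to 8 cm from the pylorus, of male C57Bl6 mice (so labelled) aged 6 to 12 weeks, and no treatment was named. In each region 3 populations were taken after digestion of the tissue: cells sorted as CD44+, CD24 low and CD166+ (CD166; 2 libraries per region), LGR5 stem cells, named for a Wnt pathway receptor of the crypt base (LGR5; 2 per region), and crypt cells (crypt; 3 per region). Sorted cells went straight into lysis buffer. The labels name no allele or reporter for the LGR5 selection, and do not state whether each library is a mouse of its own. P-values here therefore rest on the spread between libraries, which may be technical. The study's title names the regional identity of intestinal stem cells.

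Total expected counts ran from 6295828 to 20380369 per library. The 11 crypt base columnar markers were higher in both CD166 and LGR5 than in crypt cells, each at an adjusted p under 0.05. Some libraries stood apart. The library labelled ileum crypt 3 resembled the jejunum: over the 58 channel genes its mean difference from jejunum crypt 1 was 0.22 on the scale of log2(CPM + 1), the closest but 1 of all 91 pairs of libraries, against 0.52 and 0.68 from ileum crypt 2 and ileum crypt 1. Xist, made from the inactive X chromosome of female cells, stood between 200.9 and 1361.4 CPM in the 8 CD166 and LGR5 libraries and at 1674.7 and 1310.1 CPM in ileum crypt 1 and jejunum crypt 2, and at most at 3.12 CPM in the other 4 crypt libraries, although all mice are labelled male. The same ileum crypt 1 and jejunum crypt 2 libraries had the highest lymphocyte marker sums, 3503.0 and 12049.0 CPM over 11 genes. All 10 enterocyte markers and all 4 red blood cell markers were lower in CD166 and in LGR5 than in crypt cells. In bulk RNA, fewer cells of a type and less RNA per cell cannot be told apart.

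Most of the channel genes were higher in CD166 cells than in crypt cells. Of the 58, 33 rose and 4 fell at an adjusted p under 0.05 (edgeR), while 13.6% of the 14750 genes tested rose and 16.5% fell. Differences with ± in the text are log2 fold changes with their standard errors, and their p-values are adjusted over all genes tested (edgeR). The median log2 difference was 1.10 over the members and 0.02 over all genes. LGR5 cells differed from crypt cells in fewer members: 10 rose and 6 fell, beside 13% and 18.5% of all genes, with a median of 0.12 against -0.01. Between both sorted populations, 10 members were higher in CD166 than in LGR5 cells and 0 were lower, beside 1.61% and 0% of all genes, with a median of 1.09 against 0.00. Without 1 library the LGR5 to crypt number fell to 10 (without ileum LGR5 1) or 8 (without jejunum LGR5 1 or jejunum LGR5 2). The CD166 to LGR5 number was 1 without jejunum LGR5 1, 3 without ileum LGR5 1, 4 without jejunum LGR5 2 or ileum CD166 2, and 6 without ileum LGR5 2, jejunum CD166 1 or jejunum CD166 2. The CD166 contrasts share the CD166 libraries, and both contrasts with crypt share the crypt libraries.

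The level rule shaped these counts. Of the 58 members, 10 reached 1 CPM only in CD166 libraries, so that they had to differ. Of these, 9 were called higher in CD166 than in crypt, and 3 of them (Kcnh1, Kcnj5 and Kcnk2) are among the 10 called against LGR5. The 10 genes at that level only in CD166 include Cacnb2, Kcnb2 (ENSMUSG00000090498), Kcnh1, Kcnj5, Kcnk16, Kcnk2, Scn11a, Scn3b and Scn8a, whose values in CD166 cells are given as descriptions, and the counts by class contain them. Another 4 reached it only in crypt libraries (Cacna1i, Kcna3, Kcng3 and Kcnip2) and 1 only in LGR5 libraries (Kcnj16). Of the 43 members at 1 CPM in 2 or 3 populations, 24 rose and 3 fell between CD166 and crypt, 7 were higher and 0 lower in CD166 than in LGR5, and of the 22 at 1 CPM in all 14 libraries 13 rose and 1 fell between CD166 and crypt. The comparison of all 58 members was also repeated with ileum crypt 1 and jejunum crypt 2 as the only crypt libraries, so that every library was high in Xist, an alternative chosen after the data were seen: 34 members were then called between CD166 and crypt, 29 of them among the 37 above, beside 43.6% of all genes tested in that fit, and 17 between LGR5 and crypt, 11 of them among the 16 above, beside 45.3%.

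**Figure D1:**
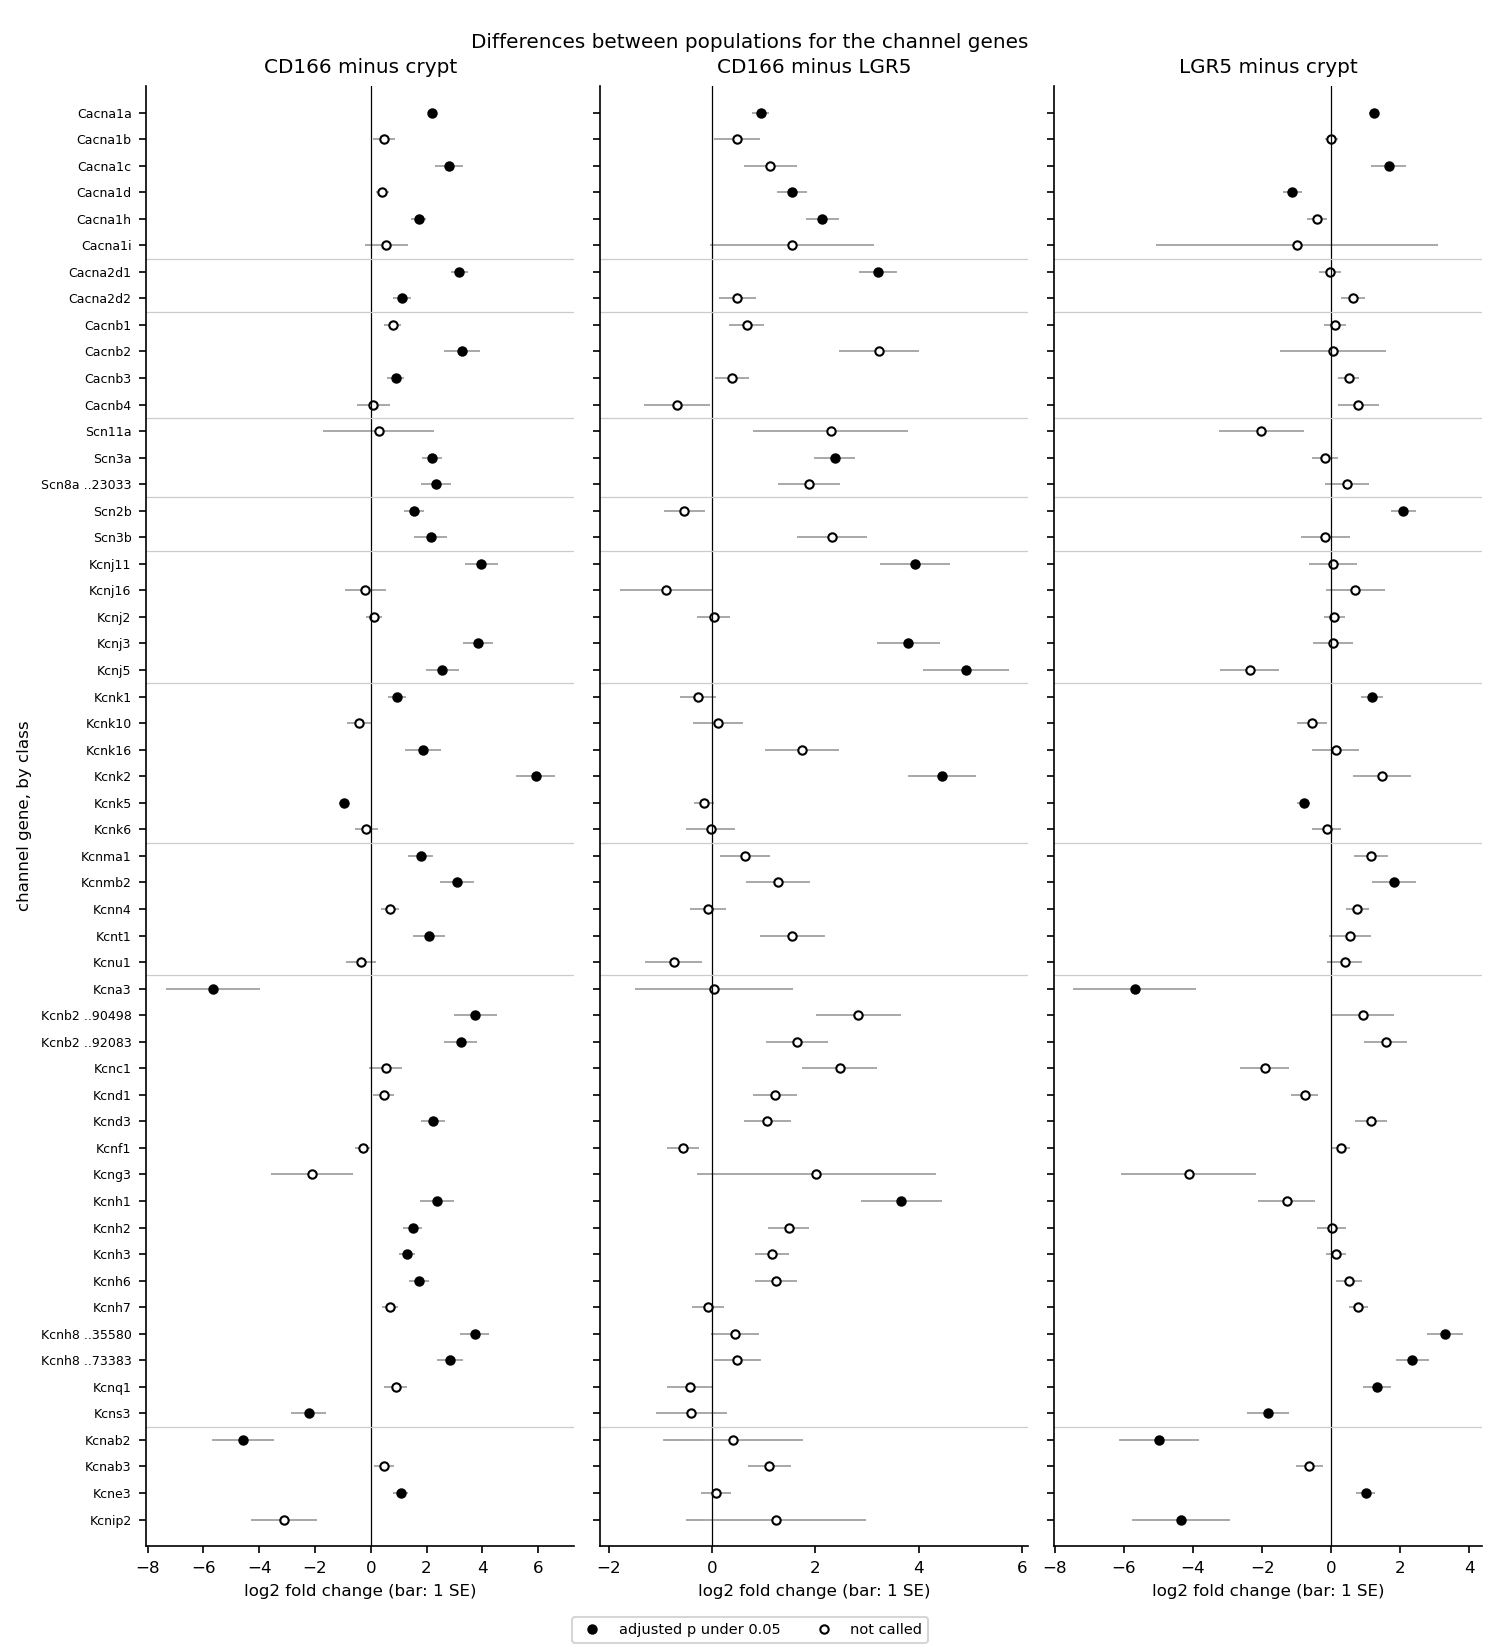
Log2 fold changes of 54 of the 58 channel genes (rows, grouped by class between the grey lines) for CD166 minus crypt, CD166 minus LGR5 and LGR5 minus crypt; bars are 1 SE, filled circles have an adjusted p under 0.05 and open circles do not, and the Kcnk2 value against crypt is a fitted one with ileal crypt at 0. In the CD166 minus crypt panel 30 filled circles lie above 0 and 4 below it, and in the CD166 minus LGR5 panel all 10 filled circles lie above 0.

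Sequence features of the members were read from their coding sequences, since the rule used names and levels only. Potassium channel pores share a selectivity filter, a short stretch that holds the potassium ion. A search for its codons (threonine, then valine, isoleucine or leucine, glycine, then tyrosine, phenylalanine or leucine, and glycine, or the serine form of the Kcnh family) found it once in all 18 kept Kv alpha subunits and all 4 kept Kir subunits with a coding sequence in the annotation used. It was found 2 times in 5 of the 6 kept K2P genes, whose name comes from that repeat. No match was found in the 6 Cav alpha1, 2 Cav alpha2delta, 4 Cav beta, 3 Nav alpha, 3 Nav beta and 4 Kv accessory members, nor in Kcnmb2, the accessory subunit of the calcium-activated channel. The stretches below are examples of the potassium filter from members described next. Other members that carry it, such as Kcnq1, Kcnk1 and Kcnj2, are not shown. They run 5' to 3' on the coding strand of GENCODE vM21 transcripts (GRCm38), with the 15 signature bases in capitals and 15 bases on each side.
Kcnj3 (chromosome 2): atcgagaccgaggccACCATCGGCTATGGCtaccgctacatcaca
Kcnj5 (chromosome 9): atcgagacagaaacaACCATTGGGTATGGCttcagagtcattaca
Kcnk2, first loop (chromosome 1): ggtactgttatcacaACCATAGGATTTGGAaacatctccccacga
Kcnk2, second loop (chromosome 1): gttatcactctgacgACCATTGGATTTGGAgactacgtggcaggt
Kcnk5, first loop (chromosome 14): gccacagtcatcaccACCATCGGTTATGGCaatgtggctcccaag
Kcnk5, second loop (chromosome 14): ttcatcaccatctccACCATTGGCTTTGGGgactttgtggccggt
Kcnh2 (chromosome 5): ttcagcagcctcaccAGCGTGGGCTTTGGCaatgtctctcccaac
Kcns3 (chromosome 12): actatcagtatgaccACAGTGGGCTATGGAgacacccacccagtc
Kcnma1 (chromosome 14): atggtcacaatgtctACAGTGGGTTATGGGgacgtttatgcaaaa
Kcnn4 (chromosome 7): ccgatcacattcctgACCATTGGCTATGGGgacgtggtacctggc

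Of the calcium channel genes called between CD166 and LGR5 cells, Cacna2d1 (ENSMUSG00000040118, chr5:15934691-16374511, plus strand) had the largest difference. It codes for an alpha2delta subunit that brings Cav channels to the membrane. Gene positions are given in GRCm38 from GENCODE vM21. Its normalised level was 8.49 and 24.99 CPM in ileum CD166, 40.3 and 43.9 CPM in jejunum CD166, 2.67 and 5.38 CPM in ileum LGR5, 2.50 and 1.64 CPM in jejunum LGR5 and 2.28 to 3.66 CPM in the 6 crypt libraries (median 2.91). Every CD166 library lay above every LGR5 and crypt library. The log2 difference was 3.17 ± 0.31, adjusted p = 7.55e-05, from crypt cells and 3.21 ± 0.36, adjusted p = 0.00154, from LGR5 cells. The second of these calls was the only one of the 10 between CD166 and LGR5 that held in each of the 14 fits without 1 library.

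Of the pore subunits, 3 of 6 rose in CD166 cells. Cacna1a (ENSMUSG00000034656, chr8:84388440-84640246, plus strand), the P/Q-type channel of transmitter release, had 42.8 and 51.1 CPM in ileum CD166, 65.9 and 82.8 CPM in jejunum CD166, 29.05 and 26.7 CPM in ileum LGR5, 27.5 and 40.5 CPM in jejunum LGR5 and 10.1 to 15.4 CPM in the 6 crypt libraries (median 13.4). The CD166 libraries were all highest, the LGR5 libraries came next, and the groups did not overlap. The difference was 2.18 ± 0.14, adjusted p = 2.09e-05, from crypt cells and 0.94 ± 0.16, adjusted p = 0.00986, from LGR5 cells, and LGR5 exceeded crypt by 1.24 ± 0.14, adjusted p = 0.000163. The call between CD166 and LGR5 was lost without ileum LGR5 1, ileum LGR5 2, jejunum LGR5 1, ileum CD166 2 or jejunum CD166 2 (adjusted p = 0.0568 to 0.0699). Cacna1h (ENSMUSG00000024112, chr17:25374285-25433783, minus strand), a T-type channel that opens near the resting voltage, had 10.2 and 18.4 CPM in ileum CD166, 40.5 and 48.5 CPM in jejunum CD166, 3.95 and 11.7 CPM in ileum LGR5, 3.94 and 4.50 CPM in jejunum LGR5 and 6.05 to 8.78 CPM in the 6 crypt libraries (median 7.77). It was highest in the jejunal CD166 libraries, and ileum LGR5 2 overlapped the ileal CD166 libraries. It differed by 1.72 ± 0.27, adjusted p = 0.00118, from crypt cells and by 2.13 ± 0.32, adjusted p = 0.00546, from LGR5 cells. The call against LGR5 was lost without jejunum LGR5 1 (log2 2.08, adjusted p = 0.0535). Cacna1h shares exonic sequence on the opposite strand with Tpsg1, a mast cell protease gene, and Cacna1a with the antisense gene Gm16183, and whether the counting used strand is not stated, so reads of such pairs cannot be told apart.

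Both L-type channel genes were called, in different contrasts. Cacna1c rose in both sorted populations, by 2.80 ± 0.49, adjusted p = 0.00194, in CD166 and by 1.66 ± 0.50, adjusted p = 0.0267, in LGR5 cells, with 2.40 and 5.55 CPM in ileum CD166, 7.16 and 8.41 CPM in jejunum CD166, 2.30 and 3.98 CPM in ileum LGR5, 2.74 and 1.39 CPM in jejunum LGR5 and 0.18 to 1.82 CPM in the 6 crypt libraries (median 0.677). The LGR5 call was lost without jejunum crypt 3 (log2 1.58, adjusted p = 0.0538) or ileum LGR5 2 (log2 1.40, adjusted p = 0.101) or jejunum LGR5 1 (log2 1.37, adjusted p = 0.115). Cacna1d, which supports calcium entry in many endocrine cells, fell in LGR5 cells (log2 -1.13 ± 0.27, adjusted p = 0.00937) and was higher in CD166 than in LGR5 cells by 1.55 ± 0.29, adjusted p = 0.0178. Against crypt its CD166 value was 0.42 ± 0.25, adjusted p = 0.224. Its levels were 2.58 and 3.06 CPM in ileum CD166, 9.23 and 10.5 CPM in jejunum CD166, 1.93 and 2.26 CPM in ileum LGR5, 1.43 and 1.64 CPM in jejunum LGR5 and 2.28 to 5.45 CPM in the 6 crypt libraries (median 3.92). Both jejunal CD166 libraries were above all others, whereas both ileal CD166 libraries lay near the crypt libraries. The CD166 to LGR5 call was lost without any 1 LGR5 library, ileum CD166 2, jejunum CD166 1 or jejunum CD166 2 (adjusted p = 0.0685 to 0.135). Cacna1d shares exonic sequence on the opposite strand with the choline dehydrogenase gene Chdh. The N-type gene Cacna1b and the T-type gene Cacna1i were not called in either contrast with crypt.

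Among the cytoplasmic beta subunits, which assist folding and gating, Cacnb2 rose in CD166 cells by 3.27 ± 0.65, adjusted p = 0.0039, with 0.831 and 3.12 CPM in ileum CD166, 2.27 and 2.16 CPM in jejunum CD166, at most 0.646 CPM in LGR5 and at most 0.342 CPM in crypt libraries. The difference moved to log2 5.14 without jejunum crypt 3 and to 2.66 without ileum CD166 2. Cacnb3, with 52.3 and 49.7 CPM in ileum CD166, 39.95 and 32.5 CPM in jejunum CD166, 51.1 and 50.2 CPM in ileum LGR5, 22.7 and 19.9 CPM in jejunum LGR5 and 6.83 to 52.5 CPM in the 6 crypt libraries (median 18.8), overlapped between all populations, and its call of 0.90 ± 0.30, adjusted p = 0.04, was lost without any 1 LGR5 library, any 1 CD166 library, ileum crypt 1, the library labelled ileum crypt 3 or jejunum crypt 3 (adjusted p = 0.0506 to 0.136). Cacnb1 and Cacnb4 did not pass in any contrast. The other alpha2delta gene kept, Cacna2d2, rose in CD166 cells by 1.12 ± 0.33, adjusted p = 0.0254. That call was lost without the library labelled ileum crypt 3, ileum CD166 2, jejunum CD166 1 or jejunum CD166 2 (adjusted p = 0.0533 to 0.128). In all, 7 of the 12 kept Cav genes rose between CD166 and crypt and 0 fell, beside 13.6% and 16.5% of all genes. Cacnb2, among the 7, is a member through CD166 libraries alone. None of the 8 matched gamma subunit genes reached the level rule.

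Of the 6 kept sodium channel genes 4 rose in CD166 cells against crypt and 0 fell, beside 13.6% and 16.5% of all genes. Scn3b and Scn8a, among the 4, are members through CD166 libraries alone, so nothing is read from this count. Scn3a (ENSMUSG00000057182, chr2:65457118-65567627, minus strand), the Nav1.3 pore, had 5.54 and 12.9 CPM in ileum CD166, 13.9 and 22.2 CPM in jejunum CD166, 2.21 and 4.52 CPM in ileum LGR5, 1.19 and 2.46 CPM in jejunum LGR5 and 1.93 to 4.37 CPM in the 6 crypt libraries (median 2.82). All CD166 libraries were above all LGR5 and crypt libraries. The difference was 2.19 ± 0.35, adjusted p = 0.00117, from crypt cells and 2.37 ± 0.40, adjusted p = 0.0108, from LGR5 cells. The second call was lost without ileum LGR5 1, jejunum LGR5 1, ileum CD166 2 or jejunum CD166 2 (adjusted p = 0.0569 to 0.0862). Scn8a (ENSMUSG00000023033), the Nav1.6 pore, rose by 2.35 ± 0.54, adjusted p = 0.00797, with 0.554 and 1.08 CPM in ileum CD166, 1.17 and 1.79 CPM in jejunum CD166 and 0.368 and 0.753 CPM in ileum LGR5, which overlap. Scn3b, an auxiliary subunit, stood just over the level rule at 0.923 and 1.15 CPM in ileum CD166 and 1.10 and 1.26 CPM in jejunum CD166, against at most 0.545 CPM in all other libraries (log2 2.15 ± 0.59, adjusted p = 0.0189, against crypt). That call was lost without ileum CD166 2 (log2 2.07, adjusted p = 0.0664) or jejunum CD166 1 (log2 2.18, adjusted p = 0.0543) or jejunum CD166 2 (log2 2.09, adjusted p = 0.067) and its value moved to log2 3.93 without ileum crypt 1. Scn11a, the Nav1.9 pore of sensory neurons, had 1.57 and 1.47 CPM in ileum CD166 and 0 and 0.074 CPM in jejunum CD166, and passed no contrast between populations.

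**Figure D2:**
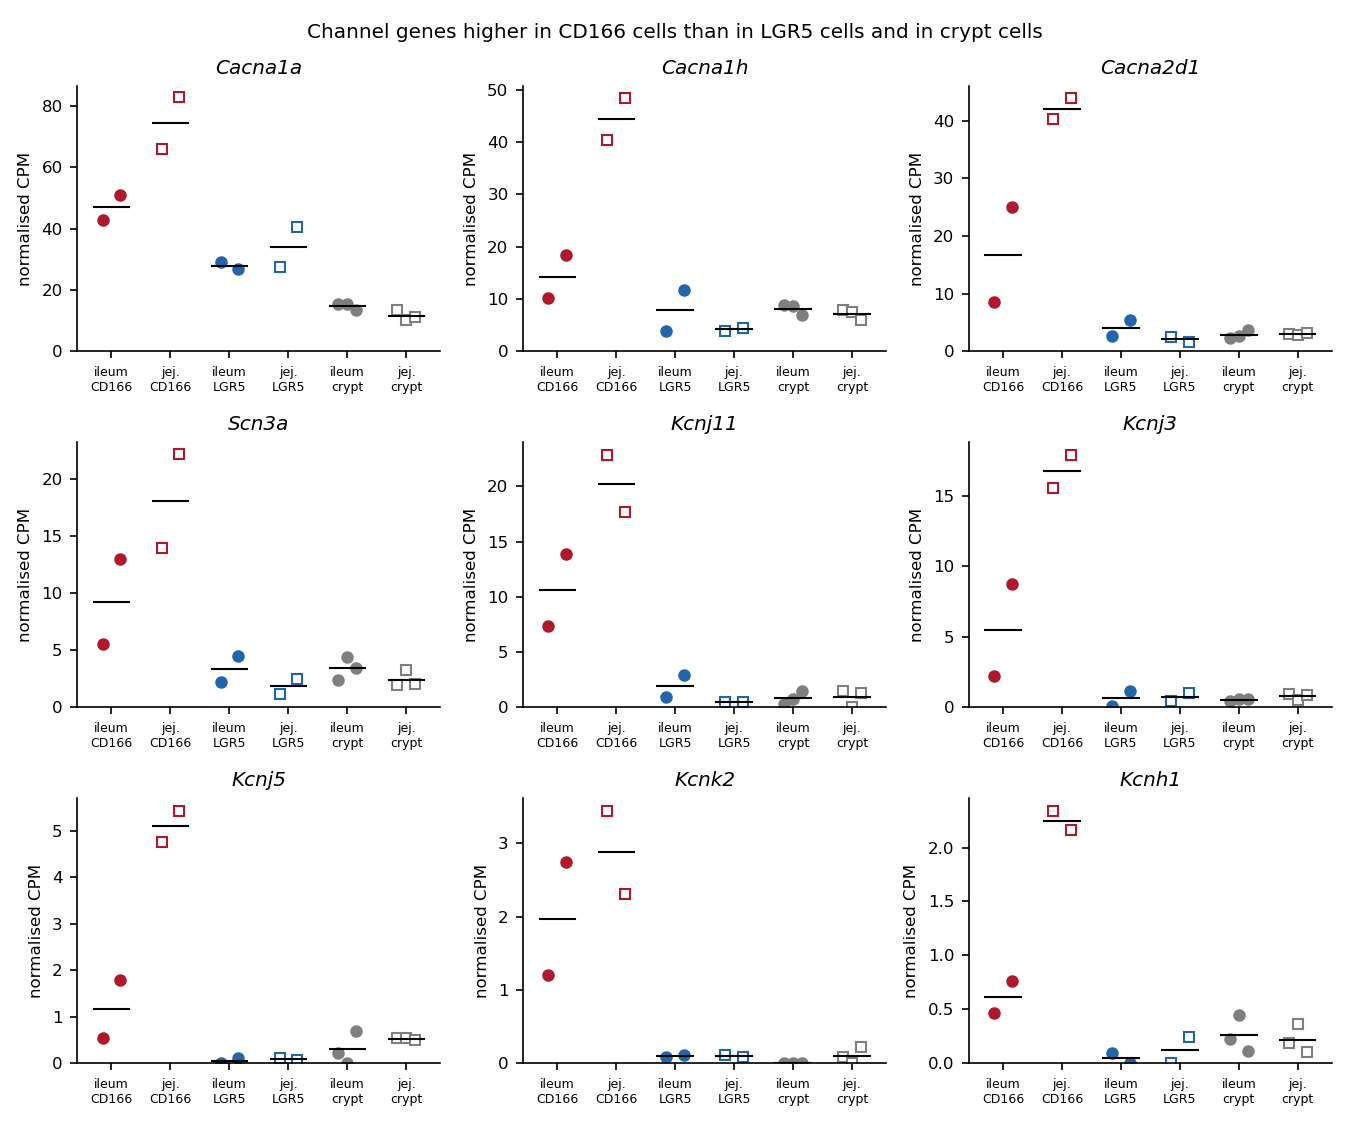
Normalised CPM per library (y axis, from 0) of the 9 channel genes called higher in CD166 than in LGR5 and in crypt cells; filled circles are ileal and open squares jejunal libraries, red is CD166, blue LGR5 and grey crypt, and black lines are group means. For Cacna2d1 the CD166 libraries run from 8.49 to 43.9 CPM and the others stay at or below 5.38 CPM, and for most genes the jejunal CD166 libraries lie above the ileal ones.

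Inward rectifiers made up 3 of the 4 members with the largest called differences between CD166 and LGR5 cells. Of these 4, Kcnj5 and Kcnk2 are members through CD166 libraries alone, so nothing is read from this ranking. Kcnj11 (ENSMUSG00000070561) codes for Kir6.2, the pore of the ATP-sensitive channel that couples nutrient metabolism to insulin release in pancreatic beta cells. It had 7.39 and 13.8 CPM in ileum CD166, 22.9 and 17.6 CPM in jejunum CD166, 0.919 and 2.91 CPM in ileum LGR5, 0.477 and 0.491 CPM in jejunum LGR5 and 0 to 1.49 CPM in the 6 crypt libraries (median 1.00). Every CD166 library was above every other library. The log2 difference was 3.97 ± 0.58, adjusted p = 0.000704, from crypt cells and 3.92 ± 0.68, adjusted p = 0.0124, from LGR5 cells. The call against LGR5 was lost without ileum LGR5 1, jejunum LGR5 1, jejunum LGR5 2, ileum CD166 2 or jejunum CD166 1 (adjusted p = 0.0587 to 0.121). Its partner Abcc8, the sulfonylurea receptor SUR1 and no member by the symbol rule, went the same way, at 26.8 and 62.1 CPM in ileum CD166, 71.8 and 76.8 CPM in jejunum CD166, 3.68 and 6.89 CPM in ileum LGR5, 2.86 and 2.79 CPM in jejunum LGR5 and 0.899 to 3.92 CPM in crypt libraries. Its difference was 4.47 ± 0.36, adjusted p = 3.11e-05, from crypt cells and 3.90 ± 0.41, adjusted p = 0.000975, from LGR5 cells.

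Kcnj3 and Kcnj5 code for Kir3.1 and Kir3.4, which combine into channels opened by G protein beta-gamma subunits downstream of inhibitory receptors. Kcnj3 (ENSMUSG00000026824, chr2:55435970-55598145, plus strand) had 2.22 and 8.73 CPM in ileum CD166, 15.6 and 17.9 CPM in jejunum CD166, 0.092 and 1.18 CPM in ileum LGR5, 0.477 and 0.983 CPM in jejunum LGR5 and 0.456 to 0.918 CPM in the 6 crypt libraries (median 0.587). The lowest CD166 library, ileum CD166 1, was still above all LGR5 and crypt libraries. The difference was 3.85 ± 0.53, adjusted p = 0.000524, from crypt cells and 3.80 ± 0.61, adjusted p = 0.00881, from LGR5 cells. The call against LGR5 was lost without jejunum LGR5 1 (log2 3.59, adjusted p = 0.0827) or jejunum LGR5 2 (log2 4.09, adjusted p = 0.0566) and its value moved to log2 5.10 without ileum LGR5 2 and to 3.14 without ileum CD166 2. The value against crypt moved to log2 3.20 without ileum CD166 2. Kcnj5 (ENSMUSG00000032034, chr9:32314707-32344350, minus strand) had 0.554 and 1.78 CPM in ileum CD166, 4.75 and 5.43 CPM in jejunum CD166, 0 and 0.108 CPM in ileum LGR5, 0.119 and 0.082 CPM in jejunum LGR5 and 0 to 0.686 CPM in the 6 crypt libraries (median 0.515). Both jejunal libraries and ileum CD166 2 were above all others, and ileum CD166 1 lay among the crypt libraries. Kcnj5 is a member through CD166 libraries alone, so that this order is a description. In the 4 LGR5 libraries together Kcnj5 had 3 counts, against 176 in the 4 CD166 libraries, a ratio per total count of 41.2 with an exact 95% interval of 13.9 to 202 that covers counting error only. The fitted difference was 4.91 ± 0.83, adjusted p = 0.0103, from LGR5 cells and 2.56 ± 0.59, adjusted p = 0.00784, from crypt cells. The call against LGR5 was lost without ileum LGR5 1, jejunum LGR5 1, jejunum LGR5 2 or ileum CD166 2 (adjusted p = 0.0587 to 0.0968) and its value moved to log2 6.13 without ileum LGR5 2. The call against crypt was lost without ileum CD166 2 (log2 2.02, adjusted p = 0.0619) and its value moved to log2 3.19 without the library labelled ileum crypt 3.

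The promoters of Kcnj3, Kcnj5 and Cacna2d1 are shown as examples from the members called higher in CD166 than in LGR5 cells. Each spans 250 bases before to 50 bases after the RefSeq start (GRCm38.p6) and is written 5' to 3' on the gene's strand, with CAGCTG, a form of the E-box that basic helix-loop-helix factors can bind, in capitals where it occurs. Both strands were searched for CAGCTG and for CAGATG, which do not overlap each other. Of 59 promoters matched to 39 of the 56 kept symbols, CAGCTG was in 14 (23.7%) and CAGATG in 8 (13.6%), against 16.3% and 17.2% of all 32851 promoters of that length. Of the 10 promoters of the 6 matched genes called higher in CD166 than in LGR5, 4 held CAGCTG and 1 held CAGATG. The median GC content was 62.7% in the members' promoters and 52.7% in all promoters.
Kcnj3 (chr2:55435720-55436019, plus strand): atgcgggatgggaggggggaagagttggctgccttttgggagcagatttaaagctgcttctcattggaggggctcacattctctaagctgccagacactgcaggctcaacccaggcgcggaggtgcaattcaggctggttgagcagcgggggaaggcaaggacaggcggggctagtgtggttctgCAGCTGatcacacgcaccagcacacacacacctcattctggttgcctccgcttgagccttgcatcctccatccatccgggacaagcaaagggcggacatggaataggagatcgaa
Kcnj5 (chr9:32344295-32344594, minus strand): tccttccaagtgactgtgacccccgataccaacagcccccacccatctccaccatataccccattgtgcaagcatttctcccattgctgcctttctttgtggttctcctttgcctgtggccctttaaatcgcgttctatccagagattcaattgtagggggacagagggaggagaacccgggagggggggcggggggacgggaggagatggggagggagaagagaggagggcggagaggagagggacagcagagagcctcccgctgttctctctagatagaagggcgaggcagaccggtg
Cacna2d1 (chr5:15934441-15934740, plus strand): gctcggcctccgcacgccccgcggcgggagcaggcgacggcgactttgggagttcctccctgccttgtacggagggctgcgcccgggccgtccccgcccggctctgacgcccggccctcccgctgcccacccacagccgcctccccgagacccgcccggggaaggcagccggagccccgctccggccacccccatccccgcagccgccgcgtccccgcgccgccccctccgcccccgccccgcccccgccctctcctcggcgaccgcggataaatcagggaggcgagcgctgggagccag

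The other inward rectifiers kept were not called between populations. Kcnj2, the classical strong inward rectifier Kir2.1, had CD166 to crypt and LGR5 to crypt values of 0.12 ± 0.29, adjusted p = 0.789, and 0.09 ± 0.30, adjusted p = 0.849. Kcnj16, Kir5.1, reached 1 CPM only in both ileal LGR5 libraries, at 1.10 and 3.34 CPM. Of the K2P genes, which carry background potassium current, Kcnk2 (ENSMUSG00000037624, chr1:189207930-189402273, minus strand), the stretch- and lipid-sensitive TREK-1 channel, had 1.20 and 2.74 CPM in ileum CD166, 3.44 and 2.31 CPM in jejunum CD166, 0.092 and 0.108 CPM in ileum LGR5, 0.119 and 0.082 CPM in jejunum LGR5 and 0 to 0.218 CPM in the 6 crypt libraries (median 0). Only CD166 libraries reached 1 CPM, and Kcnk2 is a member through them, so that this order is a description. All 3 ileal crypt libraries were at 0 counts, so its level in CD166 cells was at least 12-fold higher (log2 3.59), set by a floor of 3 counts per library, and the test gave adjusted p = 0.000428. Against LGR5 the difference was 4.45 ± 0.66, adjusted p = 0.0098, on 137 counts in CD166 and 4 in LGR5 libraries (exact 95% interval of the ratio per total count 9.18 to 89.5). This call was lost without any 1 LGR5 library or jejunum CD166 1 (adjusted p = 0.0536 to 0.0958). Its antisense neighbour in the annotation shares exonic sequence, and reads cannot be told apart between them.

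Kcnk16, a K2P channel known from pancreatic islets, had 0.831 and 1.21 CPM in ileum CD166 and 5.17 and 2.53 CPM in jejunum CD166, against at most 0.981 CPM elsewhere, and its call against crypt (1.87 ± 0.64, adjusted p = 0.0458) was lost without any 1 LGR5 library, any 1 CD166 library, ileum crypt 2, jejunum crypt 1, jejunum crypt 2 or jejunum crypt 3 (adjusted p = 0.0518 to 0.174). Both jejunal CD166 libraries were the highest. Kcnk10, TREK-2, was not called between populations (CD166 minus crypt -0.42 ± 0.44, adjusted p = 0.487) and is described with the regions.

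Within the Kv family 12 of 20 members rose between CD166 and crypt and 2 fell, beside 13.6% and 16.5% of all genes. Kcnh1 and Kcnb2 (ENSMUSG00000090498), among the 12, are members through CD166 libraries alone. Kcna3, among the 2, is a member through crypt libraries alone. Of the 7 rows of ether-a-go-go relatives (Kcnh) 6 rose. Kcnh1 had 0.462 and 0.765 CPM in ileum CD166, 2.34 and 2.16 CPM in jejunum CD166, 0.092 and 0 CPM in ileum LGR5, 0 and 0.246 CPM in jejunum LGR5 and 0.109 to 0.452 CPM in the 6 crypt libraries (median 0.206). It is a member through both jejunal CD166 libraries alone, so that their place above the others is a description. It differed by 3.66 ± 0.78, adjusted p = 0.0411, from LGR5 and by 2.37 ± 0.61, adjusted p = 0.0139, from crypt cells. The first call was lost without any 1 LGR5 library, any 1 CD166 library, jejunum crypt 1 or jejunum crypt 3 (adjusted p = 0.0502 to 0.2). The second was lost without ileum CD166 2 (log2 2.16, adjusted p = 0.0682) or jejunum CD166 1 (log2 2.30, adjusted p = 0.0521). Kcnh2, the HERG channel that repolarises heart muscle, rose by 1.51 ± 0.34, adjusted p = 0.00717, Kcnh3 by 1.30 ± 0.28, adjusted p = 0.00584, and Kcnh6 by 1.74 ± 0.36, adjusted p = 0.00481, and all 3 calls held in each fit without 1 library. Kcnh7 was the exception, at 0.70 ± 0.28, adjusted p = 0.0811. Kcnh3 shares exonic sequence on the opposite strand with Mcrs1 and Kcnh7 with Gca, so that reads cannot be told apart.

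The delayed rectifier Kcnb2 (Kv2.2), a Kv channel that repolarises beta cells and neurons, also rose. Kcnb2 stands in the files as ENSMUSG00000090498 and ENSMUSG00000092083, between which reads may be split, so both values are uncertain. They rose by 3.74 ± 0.77, adjusted p = 0.00455, and 3.22 ± 0.59, adjusted p = 0.0024. The first moved to log2 4.95 without jejunum crypt 3. Jejunal CD166 libraries had 3.44 and 1.94 CPM in the first row and 5.30 and 3.42 CPM in the second. The A-type channel Kcnd3 (Kv4.3) rose by 2.22 ± 0.43, adjusted p = 0.00334. Kcnc1, Kcnd1, Kcnf1 and Kcng3 passed no contrast between populations.

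Of 5 calcium- and sodium-activated potassium channel members 3 rose and 0 fell between CD166 and crypt, beside 13.6% and 16.5% of all genes. Kcnma1, the large-conductance BK channel opened by calcium and voltage together, rose in CD166 cells by 1.79 ± 0.45, adjusted p = 0.0125, and its auxiliary subunit Kcnmb2 by 3.09 ± 0.61, adjusted p = 0.00355. The Kcnma1 call was lost without jejunum CD166 1 (log2 1.55, adjusted p = 0.0582). The Kcnmb2 difference moved to log2 2.26 without ileum CD166 2. Kcnmb2 had 0.739 and 3.95 CPM in ileum CD166, 4.62 and 4.54 CPM in jejunum CD166, 0.919 and 0.215 CPM in ileum LGR5, 3.70 and 2.70 CPM in jejunum LGR5 and 0 to 0.981 CPM in the 6 crypt libraries (median 0.352). It was high in the jejunum of both sorted populations and in ileum CD166 2, and low in the other ileal sorted libraries. Kcnt1, a sodium-activated channel, rose by 2.09 ± 0.58, adjusted p = 0.0189. That call was lost without ileum CD166 1 (log2 1.89, adjusted p = 0.0677) or jejunum CD166 2 (log2 1.92, adjusted p = 0.0709). Kcnn4 and Kcnu1 were not called.

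Markers of enteroendocrine cells moved with these genes. Summed over 22 markers, none of them a member, the level was 1902.6 and 4855.7 CPM in ileum CD166, 9872.7 and 12943.0 CPM in jejunum CD166, 382.6 and 836.0 CPM in ileum LGR5, 385.4 and 414.5 CPM in jejunum LGR5 and 357.0 to 1191.5 CPM in crypt libraries. Between CD166 and crypt 16 of the 22 rose and 1 fell, and between CD166 and LGR5 17 rose and 0 fell. Between LGR5 and crypt 1 rose and 5 fell. Of all genes, 13.6% rose and 16.5% fell between CD166 and crypt, and 1.61% and 0% between CD166 and LGR5. Between LGR5 and crypt these shares were 13% and 18.5%. No marker was at 0 in the CD166 libraries. Markers of tuft cells moved as well: 9 of 12 rose between CD166 and crypt and 5 between LGR5 and crypt, with none called between CD166 and LGR5. Of 7 Paneth cell markers 2 rose between CD166 and crypt and 4 between CD166 and LGR5. The part of these cell types in the channel results was not tested.

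Neurons and glia also use these channels. The sum of their 7 markers was 11.2 to 15.8 CPM in ileum CD166, 17.2 to 17.7 CPM in jejunum CD166, 4.53 to 10 CPM in LGR5 and 4.42 to 13.3 CPM in crypt libraries. Of the 7, 3 were at 0 throughout ileum CD166 and 2 throughout jejunum CD166. In LGR5 these numbers were 2 in ileum and 3 in jejunum, and in crypt cells 0 and 1. Only 2 of the 7 passed the count filter, and 1 of these rose between CD166 and crypt. The part of neurons and glia in the channel results was not tested. B or plasma cell markers, by contrast, reached 1285.2 CPM in ileum CD166 2. Genes of regulated exocytosis, the machinery that releases stored vesicles, were read as a separate list of 23, of which 20 were tested. Of these, 12 rose and 0 fell between CD166 and crypt, beside 13.6% and 16.5% of all genes. Another 7 calls between CD166 and LGR5 were rises and 0 were falls, beside 1.61% and 0%. Between LGR5 and crypt, 4 rose and 1 fell, beside 13% and 18.5%. Among them Cadps, a priming factor of dense-core vesicles, rose by 2.96 ± 0.37, adjusted p = 0.000278, Cplx2, a regulator of membrane fusion, by 3.02 ± 0.27, adjusted p = 4.45e-05, and the SNARE gene Snap25 by 2.31 ± 0.29, adjusted p = 0.000278.

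The order of both regions was also read within each sorted population. In CD166, both ileal libraries lay below both jejunal libraries for 28 of the 58 members and above them for 9, beside 21.3% and 17.6% of all genes. Within LGR5 the ileal libraries lay below for 6 members and above for 26, beside 28.9% and 27.4% of all genes. Of the 10 members called higher in CD166 than in LGR5, 9 were lower in ileal than in jejunal CD166 libraries, as was the sum of enteroendocrine markers. All 4 CD166 libraries were above all 10 other libraries for 9 members (1.64% of all genes): Cacna1a, Cacna2d1, Cacnb2, Kcnk2, Kcnj11, Kcnj3, Kcnh1, Scn3a and Scn3b. Of these 9, 4 (Cacnb2, Kcnk2, Kcnh1 and Scn3b) are members through CD166 libraries alone, so nothing is read from that count. The test of whether the regional difference depends on the population called 0 of the 58 members (edgeR; 12 at an unadjusted p under 0.05, 0 by DESeq2 and 0 by limma-voom), beside 0.0136% of all genes.

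**Figure D3:**
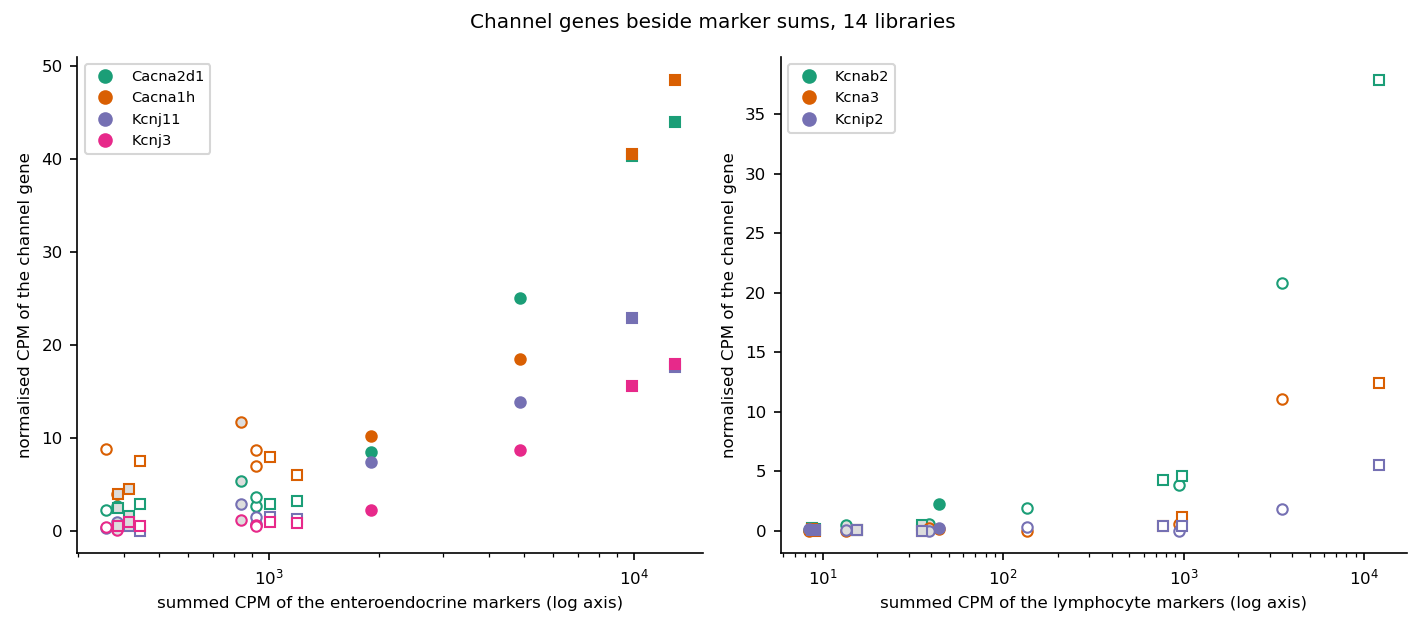
Normalised CPM of channel genes (y axes) against the summed CPM of 22 enteroendocrine markers (left) and 11 lymphocyte markers (right), on log x axes; each point is 1 of the 14 libraries, colour gives the gene, circles are ileal and squares jejunal, and fill marks CD166 (solid), LGR5 (grey) and crypt (white). On the left the 4 CD166 libraries lie at sums of 1902.6 CPM and over and hold the highest values of Cacna2d1, Kcnj11 and Kcnj3. On the right ileum crypt 1 and jejunum crypt 2, at 3503.0 and 12049.0 CPM, hold the highest values of Kcnab2, Kcna3 and Kcnip2. Kcna3 and Kcnip2 are members through crypt libraries alone, so that their order is a description.

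Of the potassium channel genes of epithelial transport, Kcne3 and Kcnk1 rose in both sorted populations, Kcnq1 rose in LGR5 cells, and Kcnk5 fell in both. Kcnq1 (ENSMUSG00000009545, chr7:143106362-143427042, plus strand), which with Kcne3 forms a channel that is open at rest and sustains chloride secretion, had 309 and 301 CPM in ileum CD166, 358 and 245 CPM in jejunum CD166, 535 and 289 CPM in ileum LGR5, 422 and 385 CPM in jejunum LGR5 and 29.3 to 235 CPM in the 6 crypt libraries (median 188). Both sorted populations were above all crypt libraries, and jejunum crypt 2 was far below the rest. It rose in LGR5 cells by 1.32 ± 0.41, adjusted p = 0.0305; the CD166 value was 0.90 ± 0.41, adjusted p = 0.119. The LGR5 call was lost without ileum crypt 1, the library labelled ileum crypt 3, ileum LGR5 1, jejunum LGR5 1 or jejunum LGR5 2 (adjusted p = 0.0517 to 0.141). Without ileum crypt 1 and jejunum crypt 2 it was log2 0.99 (adjusted p = 0.0021). Kcnq1 shares exonic sequence with Kcnq1ot1 on the opposite strand.

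Kcne3 (ENSMUSG00000035165, chr7:100176502-100184869, plus strand), the beta subunit that holds Kcnq1 open, had 360.02 and 257 CPM in ileum CD166, 166 and 406 CPM in jejunum CD166, 233 and 202 CPM in ileum LGR5, 365 and 369 CPM in jejunum LGR5 and 106 to 193 CPM in the 6 crypt libraries (median 136). Jejunum CD166 1 overlapped the crypt libraries. It rose in CD166 by 1.07 ± 0.27, adjusted p = 0.0114, and in LGR5 by 1.00 ± 0.27, adjusted p = 0.0161. The CD166 call was lost without ileum CD166 1 (log2 0.92, adjusted p = 0.0545) or jejunum CD166 2 (log2 0.67, adjusted p = 0.0756). The LGR5 call was lost without ileum LGR5 1 (log2 0.94, adjusted p = 0.0614) or jejunum LGR5 2 (log2 0.97, adjusted p = 0.0571). With only the crypt libraries high in Xist, the values were log2 0.72, with adjusted p = 0.129 and log2 0.65, with adjusted p = 0.162. Kcnn4 (ENSMUSG00000054342, chr7:24370263-24386690, plus strand), the intermediate-conductance channel opened by calcium, had 117 and 125 CPM in ileum CD166, 144 and 105 CPM in jejunum CD166, 156 and 106 CPM in ileum LGR5, 134 and 121 CPM in jejunum LGR5 and 22.1 to 108 CPM in the 6 crypt libraries (median 82.4). The populations overlapped, and its differences were 0.68 ± 0.32, adjusted p = 0.124, and 0.76 ± 0.32, adjusted p = 0.0882, in CD166 and LGR5.

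The K2P gene Kcnk1 (TWIK-1) had 107 and 129 CPM in ileum CD166, 111 and 86.5 CPM in jejunum CD166, 145 and 168 CPM in ileum LGR5, 119.9 and 95.7 CPM in jejunum LGR5 and 15.6 to 88.9 CPM in the 6 crypt libraries (median 59.1). Both ileal LGR5 libraries were highest, and ileum crypt 2 overlapped jejunum CD166 2. It rose in LGR5 by 1.19 ± 0.32, adjusted p = 0.0169, and in CD166 by 0.93 ± 0.32, adjusted p = 0.0479. The first call was lost without ileum LGR5 1 (log2 1.23, adjusted p = 0.0508) or ileum LGR5 2 (log2 1.09, adjusted p = 0.0637) or jejunum LGR5 1 (log2 1.09, adjusted p = 0.0702). The CD166 call was lost without any 1 LGR5 library, any 1 CD166 library, ileum crypt 1, the library labelled ileum crypt 3 or jejunum crypt 3 (adjusted p = 0.0573 to 0.161). Kcnk5 (ENSMUSG00000023243, chr14:20140057-20181809, minus strand), TASK-2, an alkali-sensitive channel of bicarbonate-handling epithelia, went the other way, at 34.996 and 26.7 CPM in ileum CD166, 35.9 and 38.6 CPM in jejunum CD166, 38.5 and 35.7 CPM in ileum LGR5, 36.9 and 40.1 CPM in jejunum LGR5 and 49.7 to 84.4 CPM in the 6 crypt libraries (median 63.8). Every sorted library was below every crypt library. It fell by 0.96 ± 0.20 on the log2 scale in CD166 (adjusted p = 0.00258) and by 0.80 ± 0.18 in LGR5 (adjusted p = 0.00641), and both calls held in each fit without 1 library. Of the 58 members it alone had all 8 sorted libraries below all 6 crypt libraries. The share of all genes with that order was not computed, so nothing is read from this count. The 10 enterocyte markers were lower in the same contrasts, and their part in this result was not tested.

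Scn2b (ENSMUSG00000070304, chr9:45117782-45130070, plus strand), a sodium channel beta subunit that also acts in cell adhesion, had 80.8 and 77.9 CPM in ileum CD166, 52.2 and 41.9 CPM in jejunum CD166, 119 and 53.6 CPM in ileum LGR5, 88.01 and 93.6 CPM in jejunum LGR5 and 4.67 to 33. CPM in the 6 crypt libraries (median 23.8). Every sorted library was above every crypt library, and jejunum crypt 2 was the lowest. It rose in LGR5 by 2.09 ± 0.36, adjusted p = 0.00195, and in CD166 by 1.55 ± 0.36, adjusted p = 0.00869, and both calls held in each fit without 1 library.

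**Figure D4:**
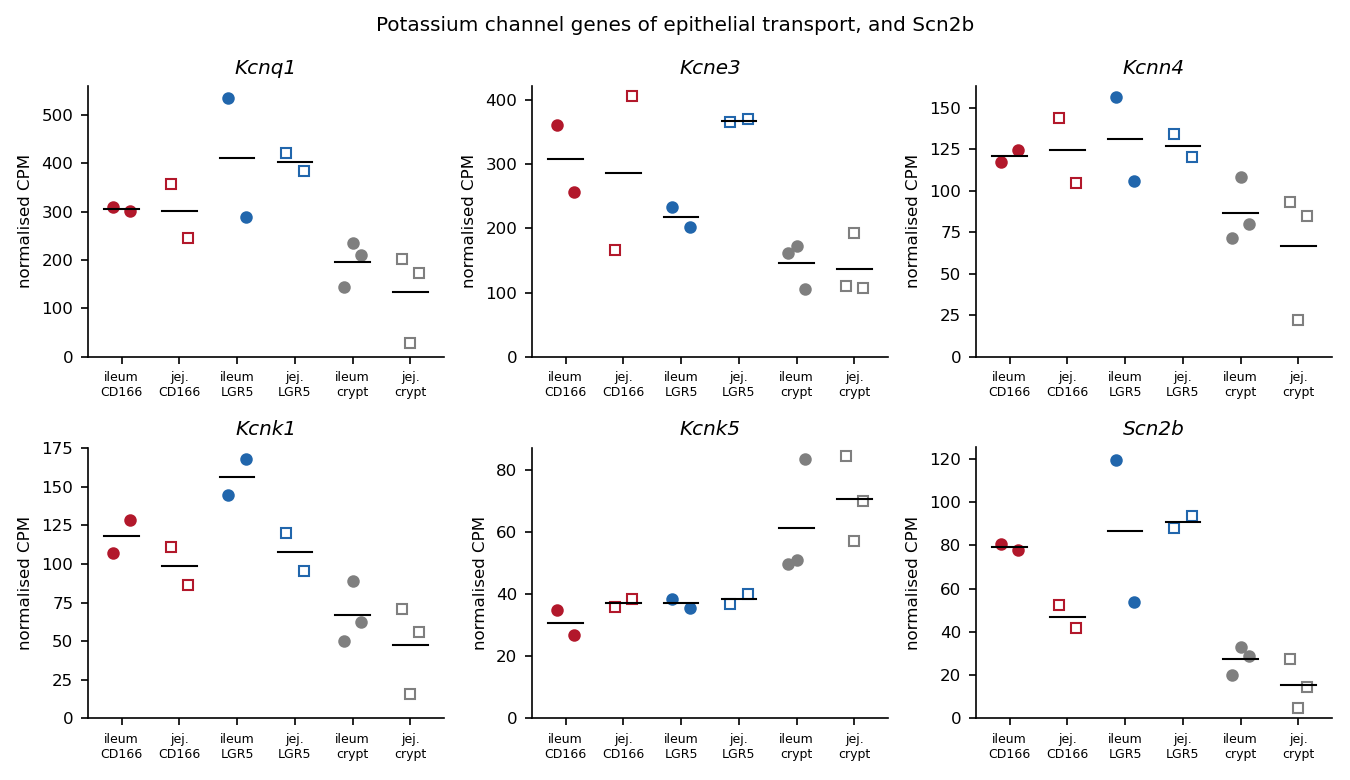
Normalised CPM per library (y axis, from 0) of Kcnq1, Kcne3, Kcnn4, Kcnk1, Kcnk5 and Scn2b; filled circles are ileal and open squares jejunal libraries, red is CD166, blue LGR5 and grey crypt, and black lines are group means. Kcnk5 lies between 26.7 and 40.1 CPM in sorted and between 49.7 and 84.4 CPM in crypt libraries, while Scn2b lies between 41.9 and 119 CPM in sorted and at or below 33.0 CPM in crypt libraries.

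In all, 9 members rose in both CD166 and LGR5 against crypt, among them Cacna1a, Cacna1c, Kcnk1, Kcne3, both rows of Kcnh8, Scn2b and Kcnmb2. The share of all genes called higher in both was not computed, so nothing is read from this count. For 7 members all 8 sorted libraries lay above all 6 crypt libraries (5.16% of all genes). Kcnh8, a slowly gated Kcnh relative, stands in the files as ENSMUSG00000035580 and ENSMUSG00000073383, between which reads may be split. The row ENSMUSG00000035580 had 1.57 and 1.66 CPM in ileum CD166, 1.93 and 1.34 CPM in jejunum CD166, 2.11 and 1.40 CPM in ileum LGR5, 1.07 and 0.573 CPM in jejunum LGR5 and 0 to 0.229 CPM in the 6 crypt libraries (median 0.165). CD166 and LGR5 libraries overlapped and all crypt libraries were below 0.25 CPM. It rose by 3.72 ± 0.51, adjusted p = 0.000495, in CD166 and 3.28 ± 0.52, adjusted p = 0.00115, in LGR5, on 7 counts in all crypt libraries together. The row ENSMUSG00000073383 rose by 2.83 ± 0.47, adjusted p = 0.0015, and 2.35 ± 0.48, adjusted p = 0.00469. The CD166 value of the second row moved to log2 3.50 without jejunum crypt 1. Its LGR5 value moved to log2 3.01 without jejunum crypt 1.

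Kcnmb2 rose in LGR5 by 1.82 ± 0.64 with an adjusted p that rounds to 0.05, and that call was lost without any 1 crypt library and without ileum LGR5 1, either jejunal LGR5 library or either jejunal CD166 library.

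Members that fell in both sorted populations included genes known from lymphocytes. Kcna3, the Kv1.3 channel of T cells, had 11.1, 0 and 0.572 CPM in ileum crypt 1, 2 and the library labelled ileum crypt 3, and 1.19, 12.4 and 0.382 CPM in the jejunal crypt libraries, against at most 0.138 CPM in CD166 and 0.215 CPM in LGR5. The 2 high values stood in ileum crypt 1 and jejunum crypt 2, the libraries highest in lymphocyte markers. Kcna3 is a member through crypt libraries alone, so that its order and its calls are descriptions. The differences were -5.66 ± 1.69, adjusted p = 0.0272, in CD166 and -5.69 ± 1.77, adjusted p = 0.0314, in LGR5. The CD166 call was lost without any 1 CD166 library or ileum crypt 1 (adjusted p = 0.0775 to 0.108), and the LGR5 call was lost without any 1 LGR5 library, ileum crypt 1 or jejunum crypt 2 (adjusted p = 0.0527 to 0.121). Without ileum crypt 1 and jejunum crypt 2 together Kcna3 did not pass the filter on low counts.

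Kcnab2, a cytoplasmic beta subunit of Kv1 channels, followed the same libraries, with 20.9, 1.96 and 3.89 CPM in ileum crypt 1, 2 and the library labelled ileum crypt 3, and 4.59, 37.9 and 4.25 CPM in jejunal crypt libraries, against 0.092 and 2.29 CPM in ileum CD166 and at most 0.538 CPM in the other sorted libraries. Ileum CD166 2, the library with the highest B or plasma cell markers, overlapped the crypt libraries. It differed by -4.59 ± 1.11, adjusted p = 0.0103, in CD166 and -4.99 ± 1.16, adjusted p = 0.00856, in LGR5. The CD166 call was lost without jejunum CD166 1 (log2 -4.73, adjusted p = 0.0512) or jejunum CD166 2 (log2 -4.50, adjusted p = 0.0585) and its value moved to log2 -3.80 without ileum crypt 1 and to -3.72 without jejunum crypt 2 and to -6.37 without ileum CD166 2. The LGR5 call was lost without ileum LGR5 1 (log2 -4.93, adjusted p = 0.0512) or jejunum LGR5 2 (log2 -4.58, adjusted p = 0.0549) and its value moved to log2 -4.20 without ileum crypt 1 and to -4.12 without jejunum crypt 2 and to -5.75 without jejunum LGR5 1. Without ileum crypt 1 and jejunum crypt 2 it was still called, at log2 -2.89, adjusted p = 0.0071, in CD166 and log2 -3.31, adjusted p = 0.005, in LGR5. Gm16334 overlaps its exons on the same strand.

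Kcnip2, a calcium-binding partner of Kv4 channels, had 1.82 and 5.57 CPM in ileum crypt 1 and jejunum crypt 2, and at most 0.382 CPM elsewhere. It is a member through these libraries alone, so that its order and its call are descriptions. It fell in LGR5 (-4.34 ± 1.42, adjusted p = 0.0382), and the call was lost without any 1 LGR5 library or any 1 CD166 library (adjusted p = 0.0521 to 0.117). Without ileum crypt 1, or without jejunum crypt 2, Kcnip2 did not pass the filter on low counts and was not tested. The CD166 value was -3.11 ± 1.20, adjusted p = 0.072. Lymphocyte markers summed to 8.4 to 44 CPM in CD166, 13.4 to 38.7 CPM in LGR5 and 135.8 to 12049.0 CPM in crypt libraries. Their part in the values of Kcna3, Kcnab2 and Kcnip2 was not tested. Kcns3, a silent Kv subunit that modifies Kv2 channels, also fell, at log2 -2.23 ± 0.64, adjusted p = 0.0221, in CD166 and -1.83 ± 0.62, adjusted p = 0.0447, in LGR5. With only the crypt libraries high in Xist its values were log2 -0.51, adjusted p = 0.334 and log2 -0.10, adjusted p = 0.868. The CD166 call of Kcns3 was lost without any 1 CD166 library (adjusted p = 0.0699 to 0.0921) and its value moved to log2 -1.53 without the library labelled ileum crypt 3, and the LGR5 call was lost without any 1 LGR5 library, any 1 CD166 library, the library labelled ileum crypt 3 or jejunum crypt 3 (adjusted p = 0.061 to 0.132).

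Between ileum and jejunum, with the 3 populations weighted equally, 8 members were higher and 2 lower in the ileum, beside 2.99% and 2.02% of all genes. Among the 8 is Kcnj16, a member through both ileal LGR5 libraries alone. Without the library labelled ileum crypt 3, all 10 remained called and Kcnt1 (log2 1.87, adjusted p = 0.0181) and Kcnk10 (log2 -1.73, adjusted p = 0.0047) were added. The calls rest on few libraries: without 1 library the number called ran from 1 (without jejunum LGR5 2 or jejunum CD166 2) to 12, and it was 2 without ileum LGR5 2, jejunum LGR5 1, ileum CD166 2 or jejunum CD166 1. It was 4 without jejunum crypt 3, 5 without ileum crypt 2 or ileum CD166 1, and 6 without ileum LGR5 1. Kcnh3 alone was called in each of these fits. Markers of other epithelial cells differed between the regions as well: 4 of 8 goblet and 2 of 7 Paneth cell markers were higher in the ileum and 0 lower, and 1 of 10 enterocyte markers was higher and 6 were lower. The goblet marker sum was 8095.4 and 23735.2 CPM in ileum LGR5, against 3266.1 and 1804.9 CPM in jejunum LGR5, and ileum LGR5 2 had the highest sum of all 14 libraries. In CD166 the sums were 5456.3 and 10729.6 CPM in ileum and 8848.7 and 5201.5 CPM in jejunum, which overlap. The part of these cell types in the regional results was not tested.

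Kcnh3 (ENSMUSG00000037579, chr15:99224861-99242817, plus strand), a Kcnh channel best known from forebrain neurons, had 13.02 and 17.5 CPM in ileal and 12.7 and 8.41 CPM in jejunal CD166, 14.2 and 21.4 CPM in ileal and 1.91 and 1.72 CPM in jejunal LGR5, and 9.69, 12.8 and 4.57 CPM in ileal (the last being the library labelled ileum crypt 3) and 3.58, 2.52 and 2.73 CPM in jejunal crypt libraries. The ileal libraries were above the jejunal ones in every population, by the widest margin in LGR5. The difference was 1.81 ± 0.25, adjusted p = 0.00502, over all populations (1.92 ± 0.20 when ileum crypt 3, as labelled, was left out) and 3.29 ± 0.49, adjusted p = 0.0288, within LGR5. Kcnh2 (ENSMUSG00000038319, chr5:24319589-24351604, minus strand) had 11.2 and 14.2 CPM in ileal and 8.27 and 7.14 CPM in jejunal CD166, 9.56 and 13.02 CPM in ileal and 1.31 and 0.901 CPM in jejunal LGR5, and 7.07, 6.63 and 2.63 CPM in ileal and 1.84, 3.77 and 1.31 CPM in jejunal crypt libraries. Ileum and jejunum overlapped in crypt cells only. It differed by 1.79 ± 0.30, adjusted p = 0.0107, and within LGR5 by 3.35 ± 0.60, adjusted p = 0.0444. The first call was lost without jejunum LGR5 2 (log2 1.70, adjusted p = 0.0568) or jejunum CD166 2 (log2 1.74, adjusted p = 0.0576). Within LGR5 the Kcnh2 call was lost without any 1 CD166 library, ileum crypt 1, jejunum crypt 3, ileum LGR5 2, jejunum LGR5 1 or jejunum LGR5 2 (adjusted p = 0.0546 to 0.424), and the Kcnh3 call was lost without any 1 CD166 library, ileum LGR5 2, jejunum LGR5 1 or jejunum LGR5 2 (adjusted p = 0.0563 to 0.424). These were the only members called within LGR5, where 0.698% of all genes were. The number was 0 without any 1 CD166 library, ileum LGR5 2, jejunum LGR5 1 or jejunum LGR5 2, 1 without ileum crypt 1 or jejunum crypt 3, 4 without ileum LGR5 1, and 5 without jejunum crypt 2 or the library labelled ileum crypt 3. Kcnh3 shares exonic sequence with Mcrs1 on the opposite strand.

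Kcnk6, TWIK-2, had 22.8 and 27.7 CPM in ileal and 18.6 and 12.3 CPM in jejunal CD166, 27.9 and 107 CPM in ileal and 8.23 and 4.01 CPM in jejunal LGR5, and 29.2, 45.7 and 23.9 CPM in ileal and 25.1, 10.6 and 8.56 CPM in jejunal crypt libraries. Ileum LGR5 2 was far above every other library, and the regions overlapped in crypt cells. The difference was 1.78 ± 0.36, adjusted p = 0.0193. The call was lost without ileum LGR5 2, jejunum LGR5 1, jejunum LGR5 2, ileum CD166 2, jejunum CD166 1 or jejunum CD166 2 (adjusted p = 0.0584 to 0.092). Kcnma1 had 4.62 and 4.84 CPM in ileal and 4.82 and 2.83 CPM in jejunal CD166, 5.42 and 12.8 CPM in ileal and 0.716 and 0.901 CPM in jejunal LGR5, and 2.85, 2.86 and 0.686 CPM in ileal and 1.19, 0.539 and 0.382 CPM in jejunal crypt libraries. Again ileum LGR5 2 was highest, and the regions overlapped in CD166 and crypt cells. It differed by 1.78 ± 0.40, adjusted p = 0.0264. The call was lost without any 1 CD166 library, ileum crypt 2, jejunum crypt 3, ileum LGR5 2, jejunum LGR5 1 or jejunum LGR5 2 (adjusted p = 0.0514 to 0.114). Kcnj16, which pairs with other Kir subunits and senses pH, was highest in ileum LGR5, at 1.10 and 3.34 CPM against 0.119 and 0.082 CPM in jejunum LGR5 (over all populations 2.49 ± 0.62, adjusted p = 0.0432). It is a member through both ileal LGR5 libraries alone, so that its order and its call are descriptions. That call was lost without any 1 LGR5 library, ileum crypt 2, jejunum crypt 3, ileum CD166 2, jejunum CD166 1 or jejunum CD166 2 (adjusted p = 0.0552 to 0.334).

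The Cav genes higher in the ileum were Cacna1b (log2 1.34 ± 0.35, adjusted p rounding to 0.05), Cacna2d2 (1.20 ± 0.29, adjusted p = 0.0349) and Cacnb3 (1.02 ± 0.26, adjusted p = 0.0447). Cacnb3 had 52.3 and 49.7 CPM in ileal and 39.95 and 32.5 CPM in jejunal CD166, 51.1 and 50.2 CPM in ileal and 22.7 and 19.9 CPM in jejunal LGR5, and 38.8, 52.5 and 17.95 CPM in ileal and 19.6, 6.83 and 16.6 CPM in jejunal crypt libraries. Its ileal libraries were higher in both sorted populations, and in crypt cells the library labelled ileum crypt 3 lay among the jejunal ones. Cacna2d2 had 6.28 and 12.1 CPM in ileal and 6.75 and 6.40 CPM in jejunal CD166, which overlap. In LGR5 it had 6.16 and 21.1 CPM in ileal and 2.03 and 2.46 CPM in jejunal libraries, and ileum LGR5 2 was the highest of all. Its crypt values were 3.99, 5.275 and 3.66 CPM in ileal and 3.49, 2.52 and 2.89 CPM in jejunal libraries, without overlap. The Cacna1b call was lost without any 1 CD166 library, ileum crypt 1, ileum crypt 2, jejunum crypt 2, jejunum crypt 3, ileum LGR5 2, jejunum LGR5 1 or jejunum LGR5 2 (adjusted p = 0.0506 to 0.184), the Cacna2d2 call was lost without ileum crypt 2, jejunum crypt 3, ileum LGR5 2, jejunum LGR5 1, jejunum LGR5 2, ileum CD166 2, jejunum CD166 1 or jejunum CD166 2 (adjusted p = 0.0692 to 0.13), and the Cacnb3 call was lost without any 1 LGR5 library, any 1 CD166 library, ileum crypt 1, ileum crypt 2 or jejunum crypt 3 (adjusted p = 0.0646 to 0.17).

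Kcns3 and Kcnj2 were lower in the ileum. Kcns3 (ENSMUSG00000043673, chr12:11090202-11151056, minus strand) had 0.554 and 0.446 CPM in ileal and 4.62 and 5.21 CPM in jejunal CD166, 0.827 and 0.753 CPM in ileal and 5.37 and 5.49 CPM in jejunal LGR5, and 0.684, 2.41 and 8.92 CPM in ileal and 8.26, 7.01 and 25.3 CPM in jejunal crypt libraries. In both sorted populations the ileal libraries were below 1 CPM and the jejunal ones above 4 CPM, and the library labelled ileum crypt 3 lay within the range of jejunal crypt. The difference was -2.60 ± 0.53, adjusted p = 0.0196 (-3.07 ± 0.42 without that library). The call was lost without any 1 LGR5 library or any 1 CD166 library (adjusted p = 0.0548 to 0.0849). Kcnj2 (ENSMUSG00000041695, chr11:111066164-111076821, plus strand) had 6.37 and 8.54 CPM in ileal and 15.98 and 21.96 CPM in jejunal CD166, 6.07 and 8.93 CPM in ileal and 17.8 and 18.4 CPM in jejunal LGR5, and 5.36, 4.97 and 14.5 CPM in ileal and 13.5, 13.1 and 16.7 CPM in jejunal crypt libraries. The same arrangement was seen, with no overlap in sorted cells. It differed by -1.14 ± 0.25, adjusted p = 0.0264 (-1.37 ± 0.16 when ileum crypt 3, as labelled, was left out). The call was lost without any 1 LGR5 library, any 1 CD166 library or jejunum crypt 3 (adjusted p = 0.0538 to 0.0999). Kcnk10 showed a like order, at 2.68 and 3.76 CPM in ileal and 9.92 and 10.9 CPM in jejunal CD166, 2.30 and 3.66 CPM in ileal and 9.42 and 9.67 CPM in jejunal LGR5, and 1.94, 4.07 and 11.1 CPM in ileal and 10.6, 5.39 and 15.6 CPM in jejunal crypt libraries, and missed the threshold over all libraries in edgeR (-1.42 ± 0.37, adjusted p = 0.0536). It was called by DESeq2 (adjusted p = 0.00443), by limma-voom (adjusted p = 0.0317) and by edgeR without the count filter (adjusted p = 0.0466).

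Within crypt cells edgeR called 0 members between regions (13 at an unadjusted p under 0.05; 2 by DESeq2, Cacnb3 and Kcnh3, and 0 by limma-voom), beside 0% of all genes. Without the library labelled ileum crypt 3, 5 were called: Kcnh3, Cacnb3 and Cacna1i higher and Kcnj2 and Kcns3 lower, beside 4.17% of all genes. Cacna1i is a member through ileum crypt 1 and ileum crypt 2 alone, the ileal crypt libraries left in that fit. Its call is therefore a description. Within CD166 edgeR called 0 members (10 at an unadjusted p under 0.05; 2 by DESeq2, Cacna1d and Cacna1h, both lower in the ileum, and 1 by limma-voom, Cacna1d), beside 0.0203% of all genes. For Cacna1d the edgeR value in CD166 was -1.80 ± 0.40, adjusted p = 0.183, and for Cacna1h -1.64 ± 0.43, adjusted p = 0.273.

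**Figure D5:**
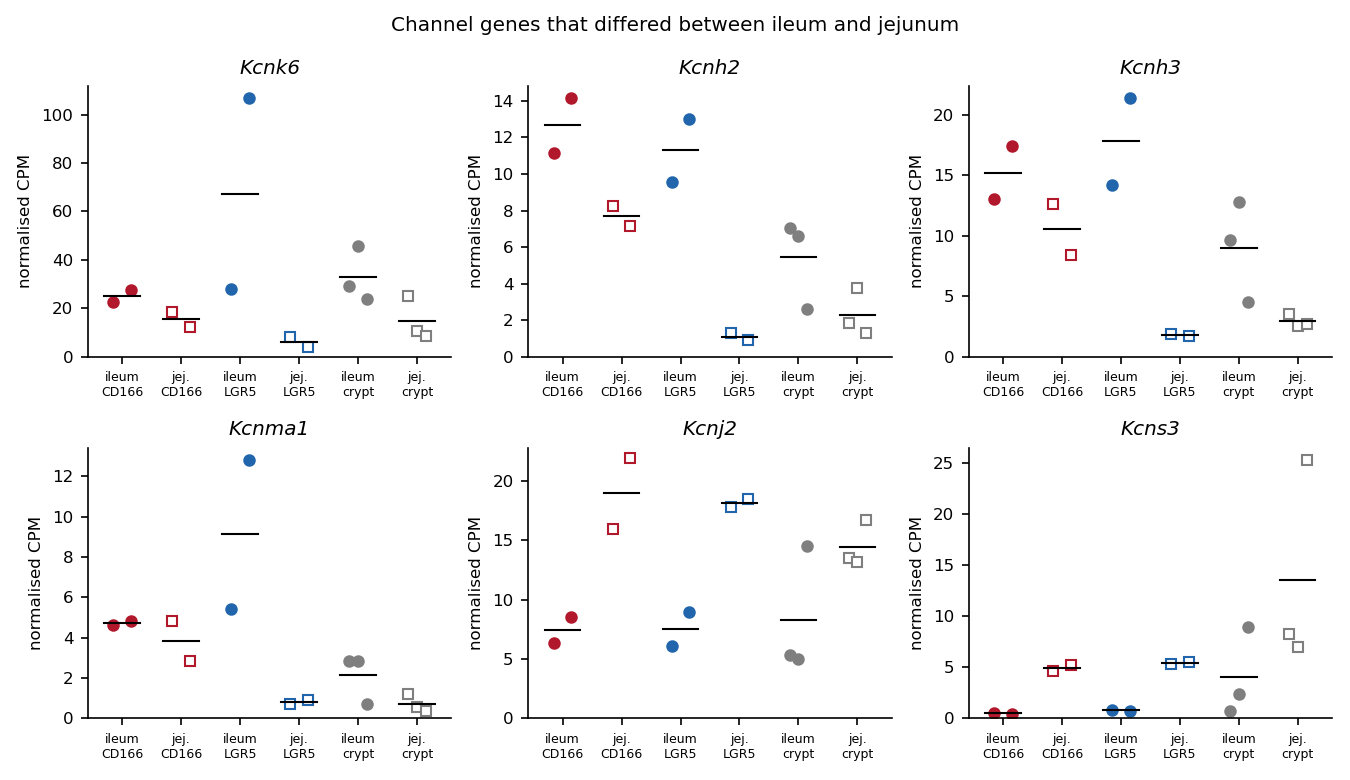
Normalised CPM per library (y axis, from 0) of 6 channel genes called between ileum and jejunum; filled circles are ileal and open squares jejunal libraries, red is CD166, blue LGR5 and grey crypt, and black lines are group means. Kcns3 is at or below 0.827 CPM in the 4 ileal sorted libraries and between 4.62 and 5.49 CPM in the 4 jejunal ones, and the rightmost ileal crypt point, the library labelled ileum crypt 3, lies nearer to jejunal crypt than to the other ileal crypt libraries for Kcnh2, Kcnma1, Kcnj2 and Kcns3.

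Other cation channels and partners, a separate list of 31 genes of which 29 were in the files and 22 were tested, were called in both directions. Between CD166 and crypt 5 rose and 5 fell, beside 13.6% and 16.5% of all genes. Between LGR5 and crypt 2 rose and 7 fell, beside 13% and 18.5%. In CD166 against LGR5, 4 rose and 0 fell, beside 1.61% and 0%. In ileum against jejunum, 1 rose and 1 fell, beside 2.99% and 2.02%. Besides Abcc8, the pacemaker channel Hcn4 rose in CD166 against crypt by 3.51 ± 0.55, adjusted p = 0.00103, Trpc1 by 3.37 ± 0.49, adjusted p = 0.000694, and Trpm5, a channel of taste and tuft cells, by 2.27 ± 0.38, adjusted p = 0.00147. Trpa1, an irritant receptor of enterochromaffin cells, was lower in the ileum (log2 -4.28 ± 0.69, adjusted p = 0.0088). Of 13 genes of chloride secretion and the sodium pump, 10 were tested. Of these, 2 rose and 4 fell between CD166 and crypt, beside 13.6% and 16.5% of all genes. Between LGR5 and crypt 1 rose and 4 fell, beside 13% and 18.5%. The chloride loader Slc12a2 (NKCC1) rose in CD166 by 1.38 ± 0.31, adjusted p = 0.00677, and in LGR5 by 2.00 ± 0.31, adjusted p = 0.000978.

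Of the 58 members 14 were called in none of the 4 main contrasts, among them Cacna1i, Cacnb1, Cacnb4, Kcnk10, Kcnab3, Kcnc1, Kcnd1, Kcnf1, Kcng3, Kcnh7, Scn11a, Kcnn4 and Kcnu1. The share of all genes called in none of them was not computed, so nothing is read from this count. Of the 136 genes matched by symbol, 78 stayed below the level rule and 15 of these had 0 counts in every library. Channels known from epithelia, smooth muscle or endocrine cells among the 78 were Kcnj13, Kcnj15, Kcnj6, Kcnj8 and Kcnmb1, with highest values of 2.27, 1.96, 0.983, 0.718 and 0.239 CPM. By class, 6 of 10 Cav alpha1, 2 of 4 alpha2delta, 4 of 4 Cav beta, 3 of 10 Nav alpha, 3 of 4 Nav beta, 5 of 15 Kir, 6 of 14 K2P, 20 of 42 Kv alpha, 4 of 12 Kv accessory and 5 of 12 calcium- or sodium-activated potassium channel genes were kept, together with 0 of 8 Cav gamma genes.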

How the data were processed

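RNA from 14 libraries of mouse small intestine was sequenced as single-end reads of 50 bases, per the labels' protocols. The expected counts per gene were deposited by the authors in files named for another unit: 50.6% of values above 0 are whole within 0.001, and library totals differ between 6295828 and 20380369. The submitters' processing notes name the mm9 build and DESeq; which aligner, counter, annotation and strand setting made the counts is not given in the sources used here. Log2 tables deposited beside them were not used.

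After rounding the expected counts to whole numbers, genes were tested with edgeR 4.0.16 (R 4.3.3): filterByExpr by group with a minimum count of 10 and a total of 15, which left 14750 genes, TMM scaling, a mean for each of the 6 groups and robust quasi-likelihood tests, with Benjamini-Hochberg adjustment over all 14750 genes. Called means an adjusted p under 0.05. Values after ± are standard errors of log2 differences. CPM in the text are TMM-normalised, whereas the level rule for members used CPM of the total count. Alternatives were DESeq2 1.42.0, limma-voom (limma 3.58.1), other scaling and filters, fits of the compared groups alone, and fits without each library. The steps were tested on simulated data.

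The members and all lists were chosen with earlier results of these data known. Genes named in the text are, for each contrast, called members with a mean of at least 2 CPM in a group, up to the 8 largest changes in each direction, members called for region within a population, the highest members of each structural class, and a set chosen by role in epithelia, enteroendocrine cells, lymphocytes or smooth muscle. Others among the 58 were named after their values were seen. Sequences came from GENCODE vM21 and RefSeq (both GRCm38), matched by gene ID or symbol, so no coordinate was converted from mm9. A few of the members and markers are counted but not reported here by name.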

Additional observations from a re-analysis of the deposited data

How the results depend on the processing

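Of the 75 calls of single channel genes described above, none turned its direction under any alternative, and all 75 were also called by DESeq2. Limma-voom lost 14 of them, fits without a count filter 9 and DESeq2 size factors 4. The number of members called between CD166 and crypt cells, 37, ran from 26 to 38 without 1 library. For LGR5 against crypt the number, 16, was 10 by limma-voom and 10 with the compared groups alone, and ran from 8 to 18 without 1 library. For CD166 against LGR5 the number, 10, was 19 with the compared groups alone and 16 without ileum crypt 1 and jejunum crypt 2, and ran from 1 to 12 without 1 library. Between regions it ran from 1 to 12. Within crypt cells it was 0, or 2 by DESeq2, and ran from 0 to 5. Within LGR5 cells it was 2, against 4 with no filter, 5 by DESeq2, 0 by limma-voom, 10 with both groups alone and 5 without ileum crypt 1 and jejunum crypt 2, and ran from 0 to 5. Within CD166 cells it was 0, against 2 by DESeq2, 1 by limma-voom, 9 with both groups alone and 1 without ileum crypt 1 and jejunum crypt 2. The cause of these differences was not tested, except that the fits without 1 library hold fewer samples. Calls that held in every fit without 1 library numbered 23 of 37, 6 of 16, 1 of 10 and 1 of 10 in the 4 main contrasts. The number of members kept, 58, was 59 with TMM-normalised CPM in the rule, 45 and 43 under stricter level rules, and 55 to 58 without 1 library.

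Over 31 pairs of libraries with the same replicate number the correlation of deviations from the group means ran from -0.52 to 0.42 and was over 0.1 in 10. In a group of 2 libraries these deviations are exact opposites. Pairs of sorted libraries numbered 1 therefore repeat the values of those numbered 2. These correlations cannot decide whether libraries of the same number share mice or a batch. With the replicate block the members called were 32, 12, 11 and 10 in the main contrasts, 6 within LGR5 cells, and 0 within crypt, within CD166 and for the interaction. The regional 10 shared 8 with those above: Cacnb3 and Kcnj16 were lost and Kcnk10 (adjusted p = 0.0103) and Kcnt1 (adjusted p = 0.0422) were gained. Of the 75 calls of single genes the block lost 12. Groups of 2 and 3 libraries limit all of these tests, and members near 1 CPM rest on few reads in the shallower libraries.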
